A study of Drosophila melanogaster with 4 samples.

Results

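A called region with 2 or more summits is a stretch of chromosome that the peak caller reported as 1 region with several points of highest signal. The authors' list of exex peaks was thresholded by irreproducible discovery rate (IDR), a measure of how alike peaks rank in replicates. It equals the 7909 highest peaks called on the pooled replicates, so a summit in it need not rank alike in every replicate. The 603 regions described here are those whose chromosome, start and end stand on 2 or more lines of this IDR list. They were chosen by that number of lines, a result of the peak calling itself. They make up 603 of the 7247 distinct regions of that list and hold 1265 of its 7909 summits, and the other 6644 regions have 1 summit each. The data are chromatin immunoprecipitation with an anti-GFP antibody, followed by sequencing, on whole Drosophila melanogaster embryos aged 6 to 24 h. The line carries exex fused at its C-terminus to GFP. The 4 libraries are biological replicates of 1 group, with no second genotype, treatment or time. The labels call the line transgenic, with an insertion aimed at exex, and state neither a driver nor a copy number, and embryos of all tissues were processed together, so neither the cells nor the endogenous dose behind a summit can be read from these files. Because the number of summits itself chose the regions, their number, spacing and signal are given as a description without a test.

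exex is the fly counterpart of HB9 (MNX1), a homeodomain transcription factor known for setting the identity of ventrally projecting motor neurons, in part by repressing genes of other neuron types. Homeodomains of its kind bind short AT-rich sites with the core TAATTA. Enhancers often hold clusters of binding sites for several factors. A summit is the caller's estimate of the point of highest signal, and a region can be listed with more than 1. CTTATC is the reverse complement of GATAAG, a site of GATA factors, zinc-finger proteins that act in the fly gut, fat body, blood cells and epidermis.

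The sequences below were read from the RefSeq Release 6 genome, the build of the deposited peaks (dm6), on the plus strand. Capitals mark CTTATC on either strand (CTTATC or GATAAG) and TAATTA, which is its own reverse complement. The first 2 sequences come from the region of highest signal, 3L:7941963-7944592 upstream of exex, whose summits are 1504 bp apart. The higher summit is at base 75 of the 150 bases around it (3L:7942572-7942721). TAATTA starts at base 3 there, outside the windows of 50 bp on each side used for pairs below. The 150 bases around the lower summit (3L:7944076-7944225) hold neither motif. The next 3 show pairs at or near the smallest spacing, each in 300 bases centred between the summits. Near CG13898 (3L:780875-781174) the higher summit is at base 51 beside TAATTA at base 44, the lower summit is at base 250, and GATAAG stands between them at base 161. In the intron of puc (3R:8118784-8119083) the higher summit is at base 49 and the lower at base 251, with CTTATC starting at bases 37 and 171 and TAATTA at base 1. In the promoter of Cpr (2L:6343246-6343545) the summits are at bases 51 and 250 and TAATTA starts at base 72. The last is the promoter of exex itself (3L:7948023-7948322), with summits at bases 36 and 265 and neither motif in the window.
highest region, higher summit: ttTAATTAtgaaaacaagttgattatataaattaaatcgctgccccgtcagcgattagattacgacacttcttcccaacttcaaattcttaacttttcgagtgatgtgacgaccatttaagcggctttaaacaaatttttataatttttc
highest region, lower summit: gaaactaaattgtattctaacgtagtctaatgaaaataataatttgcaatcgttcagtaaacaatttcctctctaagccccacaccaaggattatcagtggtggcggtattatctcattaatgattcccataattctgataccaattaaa
intergenic region nearest CG13898: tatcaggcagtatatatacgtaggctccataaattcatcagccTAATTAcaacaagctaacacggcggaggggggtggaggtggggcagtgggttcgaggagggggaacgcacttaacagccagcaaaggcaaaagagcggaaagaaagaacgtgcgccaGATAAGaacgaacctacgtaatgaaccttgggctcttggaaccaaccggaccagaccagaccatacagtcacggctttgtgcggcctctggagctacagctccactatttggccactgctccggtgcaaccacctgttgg
puc intron: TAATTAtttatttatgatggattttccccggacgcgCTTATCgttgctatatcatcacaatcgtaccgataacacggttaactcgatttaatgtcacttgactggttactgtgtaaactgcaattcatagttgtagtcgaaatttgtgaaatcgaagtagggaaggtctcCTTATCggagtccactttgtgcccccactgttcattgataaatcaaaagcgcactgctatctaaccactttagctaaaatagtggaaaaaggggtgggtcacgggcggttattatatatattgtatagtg
Cpr promoter: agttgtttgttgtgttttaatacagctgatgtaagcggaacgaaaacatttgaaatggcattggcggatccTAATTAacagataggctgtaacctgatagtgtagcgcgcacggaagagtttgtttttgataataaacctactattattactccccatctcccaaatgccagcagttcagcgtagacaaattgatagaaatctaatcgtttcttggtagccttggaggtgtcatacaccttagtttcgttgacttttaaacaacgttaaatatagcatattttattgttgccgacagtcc
exex promoter: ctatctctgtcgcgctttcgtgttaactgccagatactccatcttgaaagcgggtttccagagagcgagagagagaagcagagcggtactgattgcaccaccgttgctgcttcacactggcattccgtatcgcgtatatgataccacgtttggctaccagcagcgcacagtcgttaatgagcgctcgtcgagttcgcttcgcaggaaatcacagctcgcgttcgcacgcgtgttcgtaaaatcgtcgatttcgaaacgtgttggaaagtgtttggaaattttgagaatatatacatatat

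Most of these regions had exactly 2 summits, and they were wide and strong. There were 555 regions with 2 summits, 39 with 3, 7 with 4 and 2 with 5. The median width was 763 bp with 2 summits, 1298 bp with 3 and 1894 bp with 4, against 404 bp for single-summit regions. By the authors' signal value, a score that is used here only to rank peaks within 1 list, the highest summit of a multi-summit region had a median region rank of 1006, against 3906 for single-summit regions. When all regions were ranked by signal and divided into 4 groups of about 1811, the highest group held 459 of the multi-summit regions (25.3% of that group), the next 121, the third 23 and the lowest 0. They were 29 of the 100 highest regions.

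The IDR list ends at rank 7909 of the pooled list, and this end also limits which regions were counted. Just inside it, the lowest second summits counted had ranks of 7864, 7870 and 7876 (signal 231.6, 231.5 and 231.4). The nearest outside had ranks of 7918, 7934 and 7957 (signal 229.8, 229.2 and 228.5). In all, 307 single-summit regions have at least 1 further summit below that rank in the pooled list, 316 summits in total, and 47 multi-summit regions have 51 further ones. By chromosome arm the multi-summit regions numbered 116 on 2L, 136 on 2R, 133 on 3L, 140 on 3R and 78 on X, or between 6.95% of regions on X and 9.23% on 2R. Chromosome 4 had 0 among its 12 regions.

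Neighbouring summits of 1 region were mostly close together. The 662 pairs of neighbours had a median spacing of 205 bp, with quartiles of 201 and 220.8 bp. The smallest spacing was 199 bp and 294 pairs were at 203 bp or less. In the replicate lists, each taken as its 7909 highest peaks, the median was 203, 203, 203 and 202 bp in replicates 1 to 4. The smallest spacing was 199 bp in every list, also between summits of different regions, so no closer summits were listed anywhere in these files. A threshold of 250 bp, chosen after the spacings were seen, left 538 near pairs (81.3%) and 124 wide pairs. The wide pairs had a median spacing of 534 bp, and 53 of them were over 500 and up to 800 bp apart. Of the 603 regions, 490 had near pairs only, 73 wide pairs only and 40 both.

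**Figure D1:**
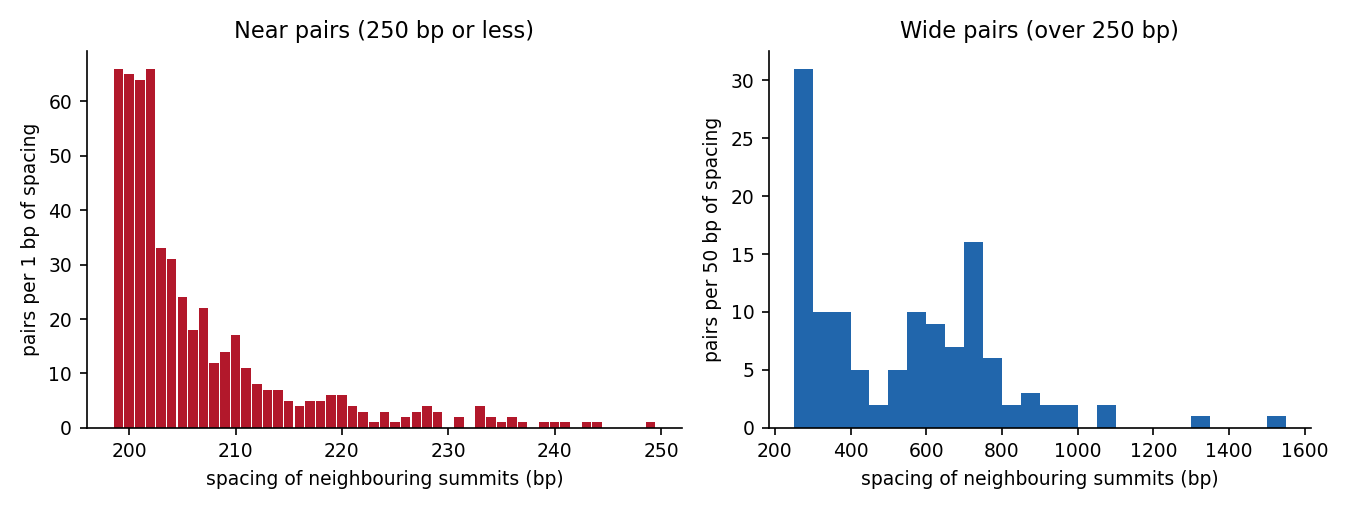
Spacing of neighbouring summits inside multi-summit regions of the IDR list: left, the 538 near pairs, counted per bp; right, the 124 wide pairs, counted per 50 bp. Near pairs pile up at the smallest spacing of 199 bp, and wide pairs reach 1504 bp.

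In near pairs the summit of lower signal lay almost without exception to the right, that is, at the higher coordinate. This held for 535 of 538 near pairs (99.4%, Wilson 95% interval 98.4 to 99.8). Replicates 1 to 4 gave 210 of 210, 338 of 339, 615 of 617 and 60 of 61, a mean of 99.4% ± 0.731 (SD, n = 4). The lower summit was to the right in 257 of 259 near pairs whose nearest gene is on the plus strand. It was to the right in 278 of 279 whose nearest gene is on the minus strand. Near neighbours called in separate regions showed it too, in 323 of 331. Wide pairs had no such side in the IDR list, with 59 of 124 to the right (47.6%, Wilson 95% interval 39.0 to 56.3). In the replicates the count for wide pairs was 24 of 38, 27 of 38, 43 of 92 and 3 of 3, so replicate 4 gives almost no information on them. The position of the highest summit was also taken as a percentage of the region's length from its left end. In multi-summit regions the median was 42.98% (quartiles 35.89% and 49.56%). In single-summit regions it was at the centre, with a median of 50.11% (quartiles 47.63% and 55.15%). The cause of the fixed side was not tested.

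The lower summit was often much weaker. The ratio of lower to higher signal had a median of 0.400 in near pairs and 0.625 in wide pairs, and over all pairs it ran from 0.0427 to 0.997. Only 29 of the 662 pairs had a lower summit at 90% or more of the higher one.

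**Figure D2:**
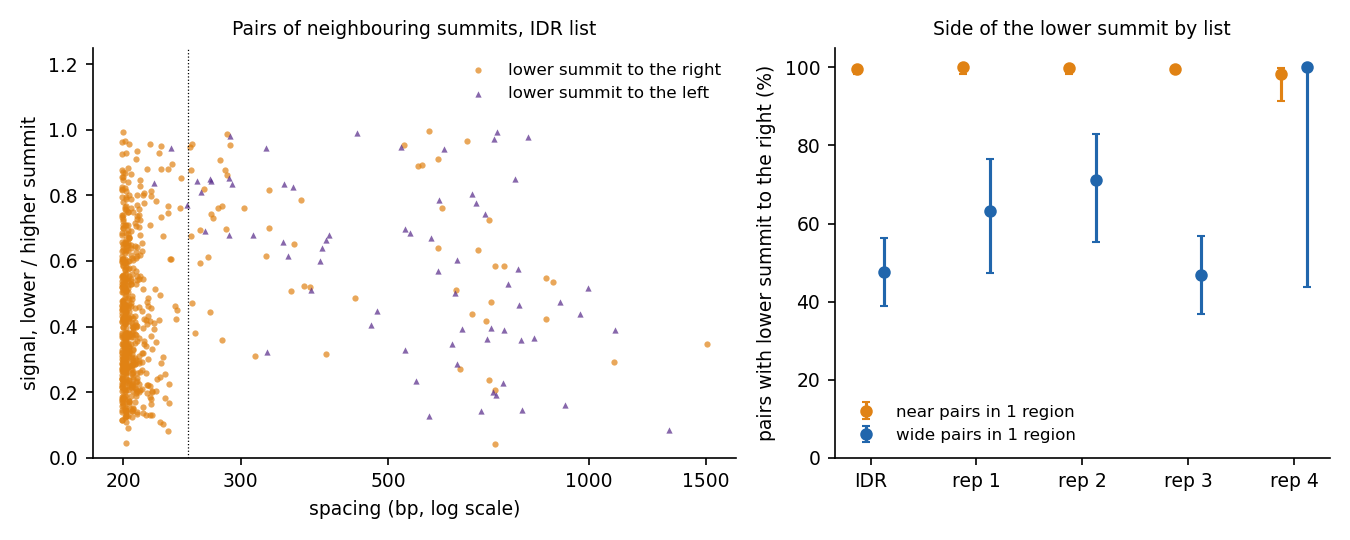
Left, each of the 662 pairs of the IDR list by spacing (log axis) and by the ratio of lower to higher signal, with the side of the lower summit in colour and shape; the dotted line is at 250 bp. Right, the share of pairs with the lower summit to the right in the IDR list and in each replicate, with Wilson 95% intervals: near pairs are at 98.4% or above in every list, wide pairs at 46.7% to 100%.

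Over all pairs together, most of them near pairs, both motifs were more frequent at the higher summit than at the lower one. Over the 596 pairs at least 200 bp apart, whose windows of 50 bp on each side do not overlap, CTTATC was present at 30.7% of higher summits (Wilson 95% interval 27.1 to 34.5), 22.0% of lower summits (18.8 to 25.5) and 20.5% of midpoints between them (17.4 to 23.9). TAATTA was present at 15.9% of higher summits (13.2 to 19.1), 7.55% of lower summits (5.69 to 9.95) and 6.71% of midpoints (4.97 to 9.01). Genome windows of the same length placed every 1000 bp held CTTATC in 4.27% and TAATTA in 6.46%. At the lower summit TAATTA was thus within counting error of the genome share, whereas CTTATC was above it. In the 538 near pairs CTTATC was present at 30.3% of higher summits, 19.7% of lower summits and 22.49% of midpoints. In the 124 wide pairs the shares were 31.45%, 29.03% and 16.94%. The replicates differed on wide pairs. Replicates 1 to 3 had CTTATC at 28.95%, 34.21% and 17.39% of their lower summits, against 21.05%, 36.84% and 20.65% of midpoints. Replicate 4 has 3 wide pairs.

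In the replicate lists, the share with CTTATC at the higher summit minus that at the lower was 5.86, 12.5, 7.74 and 3.77 percentage points, a mean of 7.46 ± 3.71 (SD, n = 4). For TAATTA the difference was 6.76, 9.12, 8.40 and 9.43 points, a mean of 8.43 ± 1.20 (SD, n = 4). Both were above 0 in 4 of 4 replicates (exact two-sided sign-flip permutation test, p = 0.125 each, the smallest that 4 replicates can give, so this test cannot pass 0.05). Motif shares also fell with signal in single-summit regions of the IDR list, within 100 bp of the summit. From the highest to the lowest of the 4 signal groups, CTTATC went from 47.5% to 24.2% and TAATTA from 24.6% to 17.4%. Whether the difference between paired summits exceeds this trend was not tested. For pairs at least 300 bp apart the differences were 0.102 ± 9.27 points for CTTATC and 11.8 ± 26.1 points for TAATTA (SD, n = 4 each), less than the spread between replicates. The mean of both summits was also set against the midpoint. TAATTA exceeded it by 5.20 ± 1.53 points (SD, n = 4; exact permutation p = 0.125). CTTATC exceeded it by 1.13, 0.760, 0.247 and 15.1 points, and replicate 4, with 53 pairs, decided the mean of 4.31; without it the mean was 0.711. The lower summit alone, minus the midpoint, gave -1.80, -5.47, -3.62 and 13.2 points for CTTATC, below 0 in 3 of 4 replicates; the mean of 0.578 ± 8.55 (SD, n = 4) takes its sign from replicate 4, and without it the mean was -3.63 ± 1.84 (SD, n = 3). For TAATTA it was 0.985 ± 2.10 points (SD, n = 4), less than the spread between replicates.

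Around the lower summit of a near pair CTTATC was more frequent than at the same distance on the opposite side of the higher summit. Each lower summit was compared with the mirror position, the point as far away on the other side of the higher summit, a comparison added after the fixed side was seen. The lower summit was called for its signal and the mirror position was not, so the 2 positions differ by selection. The region also reaches farther to the right of its highest summit, which lay at a median of 42.98% of its length. The values that follow are therefore a description. CTTATC was present within 50 bp of 106 of 538 lower summits (19.7%, Wilson 95% interval 16.6 to 23.3) and of 77 of 538 mirror positions (14.3%, 11.6 to 17.5). The replicates gave differences of 9.05, 6.79, 6.81 and 9.84 points, a mean of 8.12 ± 1.56 (SD, n = 4), above 0 in 4 of 4. TAATTA was present at 7.43% of lower summits and 8.36% of mirror positions, and the replicate difference of -0.392 ± 1.45 points (SD, n = 4) was smaller than its spread. In 50 bp bins, CTTATC was present in 11.2% of near pairs at 200 to 250 bp on the side of the lower summit and in 7.25% at the same distance on the other side. The excess was not confined to the lower summit. Farther out the 2 sides had 9.29% and 5.76% at 250 to 300 bp and 8.18% and 4.46% at 300 to 350 bp. Closer to the higher summit it was the other way round, with 16.5% and 17.8% at 0 to 50 bp and 11.3% and 15.99% at 50 to 100 bp. TAATTA was at 3.16% and 4.65% in the bins at 200 to 250 bp. Single-summit regions had CTTATC in 3.55% of bins at 200 to 250 bp to the right and 4.17% to the left.

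**Figure D3:**
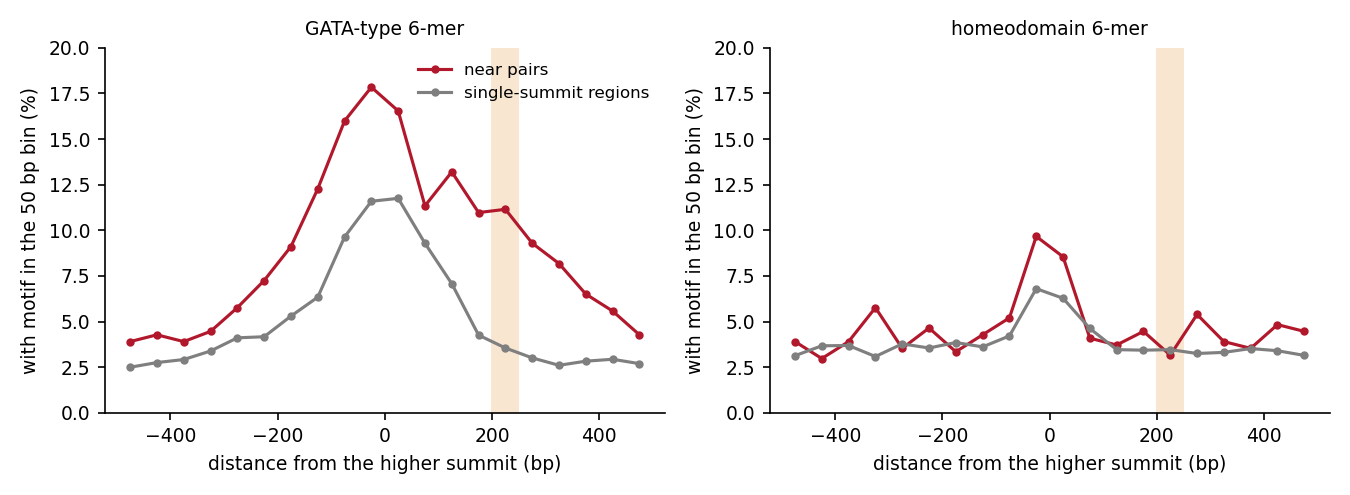
Share of regions with CTTATC (left, GATA-type 6-mer) and TAATTA (right, homeodomain 6-mer) in 50 bp bins around the higher summit, for the 538 near pairs (distance positive towards the lower summit, shaded where it lies) and the 6644 single-summit regions (distance positive to the right). CTTATC in near pairs peaks at 17.8% beside the higher summit and stays at 11.2% where the lower summit lies.

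Within a region, the motifs seldom recurred at all summits. Of the 603 regions, 417 had CTTATC within 100 bp of at least 1 summit and 96 at every summit. TAATTA was within 100 bp of at least 1 summit in 223 regions and of every summit in 10. Both motifs were found in 144 regions and neither in 107. Windows of 100 bp on summits about 200 bp apart meet in the middle, so 1 motif copy can count for both.

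The highest summit stands for a region in the comparison with single-summit regions, so each region counts once. Its distance to the nearest transcription start site (TSS) of a protein-coding gene was 200 bp or less in 102 of 603 multi-summit regions (16.9%, Wilson 95% interval 14.1 to 20.1) and in 30.8% of single-summit regions (29.7 to 31.9). When the rule was applied to each replicate list, replicates 1 to 4 had 17.1%, 12.7%, 15.9% and 22.2% of multi-summit regions within 200 bp, against 30.0%, 26.1%, 30.5% and 33.9% of single-summit regions. The 2 classes did not overlap, and the difference was -13.1 ± 1.19 points (SD, n = 4), lower in 4 of 4 replicates (exact two-sided sign-flip permutation test, p = 0.125, the smallest possible). The difference was -7.89 ± 2.15 points within 500 bp and -4.57 ± 1.64 points within 1000 bp (SD, n = 4 each, exact permutation p = 0.125 each). These values concern the highest summit only. With any summit of the region counted, the difference within 1000 bp was -1.86 ± 1.17 points (SD, n = 4). Any summit was not counted at 200 bp. Multi-summit regions were stronger than single-summit ones, so the share within 200 bp was also taken in the 1811 regions of highest signal. There it was 17.0% (13.8 to 20.7) for multi-summit and 26.4% (24.1 to 28.8) for single-summit regions. Multi-summit regions were still stronger there, with a median signal of 1323 against 1143.

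With a promoter taken as 1000 bp around a TSS, 310 multi-summit regions (51.4%, Wilson 95% interval 47.4 to 55.4) had their highest summit in a promoter, 226 (37.5%) in an intron, 59 (9.78%) in intergenic sequence and 8 (1.33%) in an untranslated region, against 55.8%, 32.5%, 9.02% and 2.38% of single-summit regions. Coding sequence outside promoters held 0 of 603, for which the limit of 3 counts in 603 is 0.498% and the upper Wilson 95% bound 0.633%, and 0.361% of single-summit regions. Multi-summit regions had a median TSS distance of 952 bp and single-summit regions one of 752.5 bp. Over the replicates the intron share was higher by 4.44 ± 2.45 points and the intergenic share by 1.92 ± 1.95 points (SD, n = 4 each), each higher in 4 of 4 (exact permutation p = 0.125 each).

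CTTATC was more frequent in multi-summit than in single-summit regions, and the gap was smaller within groups of regions ranked by signal. Within 100 bp of the highest summit it was present in 286 of 603 multi-summit regions (47.4%, Wilson 95% interval 43.5 to 51.4) and in 34.1% (32.9 to 35.2) of single-summit regions. The replicates gave 52.9%, 53.8%, 49.3% and 57.1% of multi-summit regions, against 36.7%, 32.1%, 33.01% and 31.7% of single-summit regions, a difference of 19.9 ± 4.51 points (SD, n = 4; exact permutation p = 0.125). In the 1811 regions of highest signal in the IDR list the shares were 50.8% (46.2 to 55.3) for multi-summit and 47.5% (44.8 to 50.2) for single-summit regions. These intervals overlap. In the next 1811 the shares were 38.02% and 36.2%. In the third group the order was reversed, with 30.4% of 23 multi-summit regions and 31.9% of single-summit regions. Within the first 2 groups multi-summit regions were still the stronger class, with median signals of 1323 against 1143 and 665 against 568.3. In the upper 25% of each replicate list by signal the difference was 9.03 ± 5.26 points (SD, n = 4), and with the replicate summits taken in the IDR regions it was 11.2 ± 1.34 points (SD, n = 4). TAATTA was present in 23.9% of multi-summit regions (20.6 to 27.4) and in 19.8% of single-summit regions (18.9 to 20.8), with a replicate difference of 6.13 ± 2.71 points (SD, n = 4; exact permutation p = 0.125), or 2.77 ± 0.996 points with the replicate summits taken in the IDR regions (SD, n = 4). In the 1811 regions of highest signal it was at 24.4% in multi-summit and 24.6% in single-summit regions. Genome windows of this length held CTTATC in 8.32% and TAATTA in 12.4%.

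**Figure D4:**
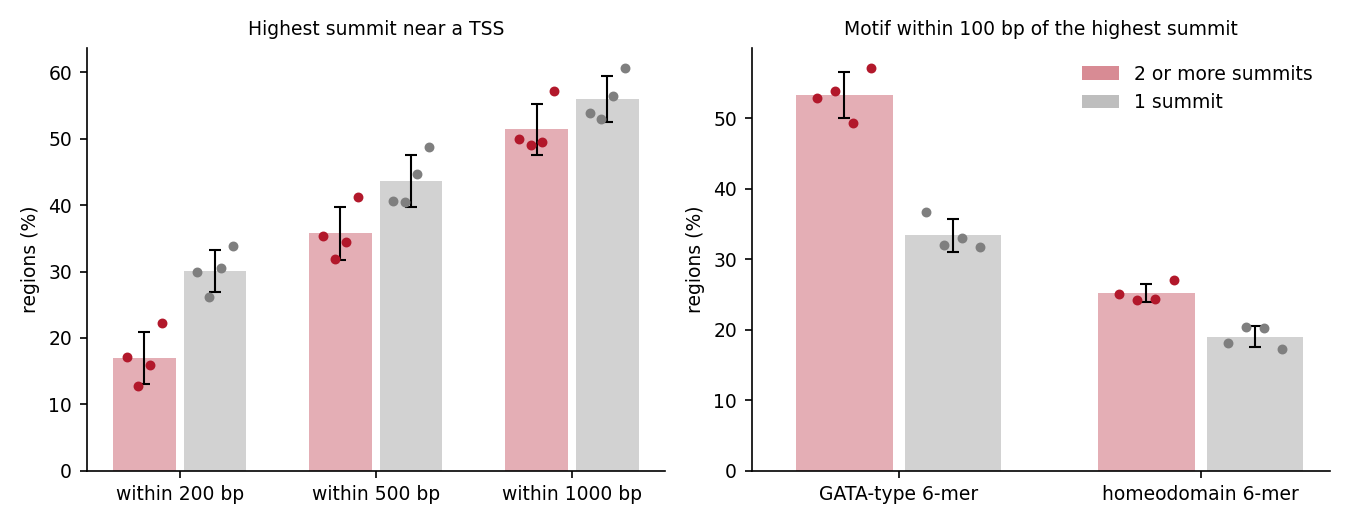
Multi-summit regions (red) beside single-summit regions (grey) in the 4 replicate lists; bars are means, error bars SD and points replicates 1 to 4 from left to right. Left, share with the highest summit within 200, 500 or 1000 bp of a TSS, where the gap is -13.1, -7.89 and -4.57 points; right, share with the GATA-type or the homeodomain 6-mer within 100 bp of the highest summit, not matched for signal, with differences of 19.9 and 6.13 points.

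The summits of 1 region mostly fell in the same kind of sequence. All summits were in promoters in 286 regions, in introns in 213, in intergenic sequence in 53 and in untranslated regions in 5, and 46 regions mixed kinds, most often intron and promoter (28). A TSS stood between the outermost summits in 66 regions, and in 3 of these TSSs of both strands did. In 22 regions the summits had different nearest genes. Of the 351 pairs with at least 1 summit in a promoter, the higher summit was the one nearer to a TSS in 173 and the lower in 178, and the replicates gave 66 of 132, 94 of 193, 181 of 378 and 17 of 37.

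The replicates all placed signal in these regions but divided it differently. At least 1 of the 7909 highest summits of a replicate fell in 99.7% ± 0.209 of multi-summit regions and 81.3% ± 6.21 of single-summit regions (SD, n = 4). Replicates 1 to 4 had 2 or more such summits in 59.4%, 75.3%, 86.1% and 68.2% of multi-summit regions, a mean of 72.2% ± 11.3, against 5.57% ± 1.87 of single-summit regions (SD, n = 4). These summits shared 1 called region of the replicate in only 32.3%, 41.5%, 73.8% and 7.30% of multi-summit regions, so in replicate 4 such summits mostly stood in separate called regions. Width limits the comparison with single-summit regions, because no 2 listed summits were closer than 199 bp. The median width was 404 bp with 1 summit and 763 bp with 2, so many single-summit regions had little room for a second. The replicate lists themselves held 240, 355, 653 and 63 multi-summit regions, lowest in replicate 4. A replicate summit lay within 100 bp of the highest summit in 91.6% ± 3.74 of multi-summit regions and of the second summit in 73.1% ± 11.7 (SD, n = 4). Every summit was matched in 63.4% ± 14.6 of multi-summit regions and 78.4% ± 7.20 of single-summit regions (SD, n = 4), which have fewer summits to match. Among multi-summit regions with a wide pair it was 56.6% ± 13.6 (SD, n = 4). The matches were not required to be distinct, so 1 replicate summit could match both summits of a pair up to 200 bp apart. Since the IDR list derives from the same libraries, these shares are a description and were not tested.

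At least 3 replicates had 2 or more summits in 399 of the 603 multi-summit regions (66.2%) and in 91 single-summit regions (1.37%), where 6.76% of all IDR regions had this. In all 4 replicates it was 217 regions, in 3 it was 182, in 2 it was 136, in 1 it was 56 and in none 12. Regions with a wide pair reached all 4 replicates in 77 of 113 cases (68.1%) and regions with near pairs only in 140 of 490 (28.6%), while the median region rank was 1319 with a wide pair and 932 with near pairs only. These counts take any 2 replicate summits in the region, so a longer region has more room for them. Of the 113 regions, 40 also held a near pair. Every summit was matched in 56.6% ± 13.6 of regions with a wide pair and 63.4% ± 14.6 of all multi-summit regions (SD, n = 4 each).

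**Figure D5:**
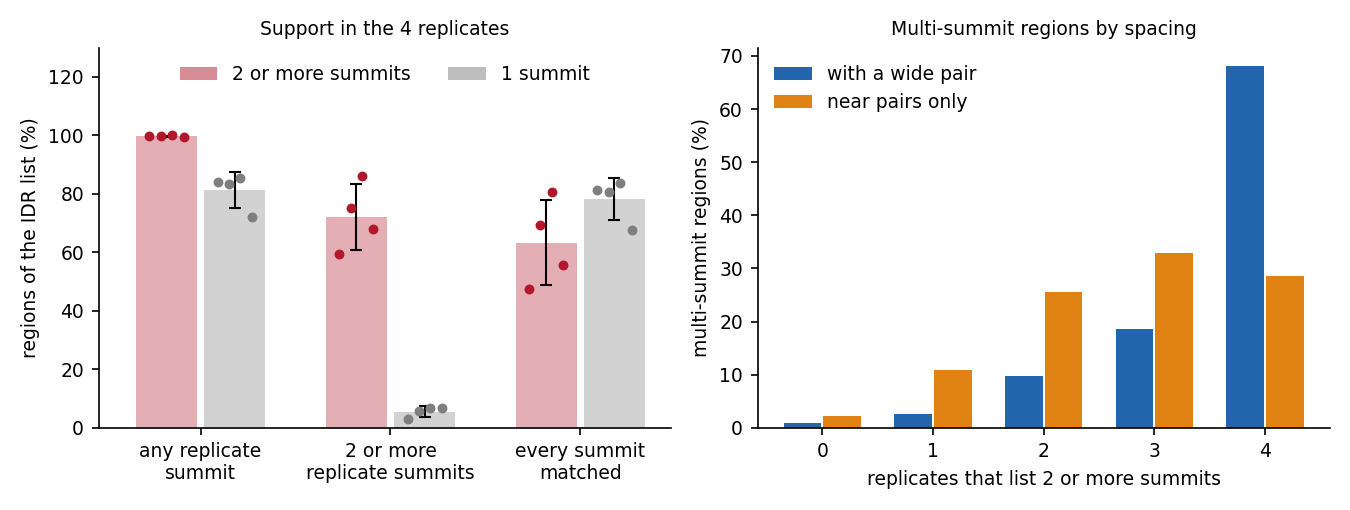
Left, share of multi-summit (red) and single-summit (grey) IDR regions with any replicate summit, with 2 or more replicate summits, and with every summit matched within 100 bp; bars are means, error bars SD and points replicates 1 to 4. Right, share of multi-summit regions by the number of replicates that list 2 or more summits: 68.1% of those with a wide pair and 28.6% of those with near pairs only reach 4.

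A group of 8 multi-summit regions lay within 20 kb of exex itself (FBgn0041156, 3L:7948186-7951563, plus strand). The strongest, upstream of exex and nearest to CG43880, had summits at 7942646 and 7944150, ranked 1 and 13 in the IDR list. In the complete replicate lists, by the best-ranked summit within 100 bp, the first ranked 1 in all 4 replicates, and the second ranked 15, 13, 9 and 60 in replicates 1 to 4. Both summits were among the 60 highest peaks of every library, and replicate 4 placed the second lowest. The region beside Srp9, which encodes a signal recognition particle subunit, had summits 224 bp apart at 7940815 and 7941039, ranked 4 and 402. Replicates 1 to 4 ranked its higher summit 4, 3, 4 and 8, and its lower one 416, 92, 138 and 12515.

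On the other side of exex, towards RNaseX25, a region had summits at 7961064 and 7961788, 724 bp apart, ranked 7 and 6680. The first ranked 8, 6, 7 and 16 in the replicates. Its second summit ranked 1305, 22029 and 29347 in replicates 1 to 3 and had no match within 100 bp in replicate 4, so only replicate 1 placed it among the highest peaks. The adjoining region had 3 summits, ranked 9, 6790 and 2382. At the exex promoter, summits at 7948058 and 7948287 lay on either side of the TSS, 128 and 101 bp from it, and ranked 163 and 7292. In replicates 1 to 4 the first ranked 93, 216, 263 and 335 and the second 6298, 3200, 1680 and 641, so every replicate placed the second higher than the pooled list did. The remaining regions of the locus lay beside Srp9, in the promoter of syd, which encodes a JIP-family adaptor of kinesin transport and has 3 summits there, and past the 3' end of exex. The labels give no position for the insertion, which carries exex sequence; whether it adds to the signal at this locus was not tested.

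The 9 regions with 4 or 5 summits were spread over introns, promoters and intergenic sequence. An intron of puc, the JNK phosphatase gene of dorsal closure, had 5 summits over 3R:8118564-8120528, ranked 135, 5367, 1304, 2115 and 4982 from left to right. Of these, the first ranked 68, 155, 173 and 302 in replicates 1 to 4. The other region with 5 summits (2R:11201503-11204138) ran from an intron into a promoter of shn, a zinc-finger factor of BMP signalling, with its strongest summit at rank 513 and at 365, 515, 673 and 1152 in the replicates. Introns of Gug, the fly Atrophin corepressor gene, and of spdi, with the homeobox gene vnd as the nearest TSS, had 4 summits each, led by ranks 857 and 854.

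Promoters with 4 summits were those of CG12926, of the cytochrome P450 gene Cyp317a1 and of fru, the zinc-finger gene of male courtship, led by ranks 395, 1590 and 2864. Intergenic regions with 4 summits were nearest to CG13898, 21936 to 23126 bp from its TSS, and to SrpRbeta, a subunit of the signal recognition particle receptor, led by ranks 34 and 802. At CG13898 the summits ranked 34, 2195, 311 and 676 from left to right, and replicates 2 and 3 had no summit within 100 bp of the third. All 9 of these regions held at least 1 near pair with the lower summit to the right, as did 15 of their 15 near pairs.

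Among the 10 multi-summit regions of highest signal, 4 belonged to the exex locus and 1 was that near CG13898. CG14502, in a stretch that also lies in the gene sbb, had promoter summits 997 bp apart, ranked 18 and 3, and the replicates ranked them 16, 26, 17 and 22, and 3, 4, 3 and 4. In the intron of Eglp4, of the aquaporin family, the summits ranked 12 and 304, and the lower one had no match in replicate 1. The summits between the divergent promoters of CG8093 and CG11808 ranked 19 and 2049 and had different nearest genes. An intron of rgr had ranks of 21 and 2466, and the promoter of Cpr, which encodes the reductase partner of cytochromes P450, 35 and 1384. At Cpr the first summit ranked 59, 40, 24 and 45 and the second 2311, 2764, 819 and 1287.

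Genes were counted when a summit of a multi-summit region lay in the body or within 5000 bp, which 9.5% of all 13945 protein-coding genes met. Most genes near these regions had 1: as nearest gene, 482 genes had 1 region, 56 had 2, 7 had 3, and shn and Pdp1, a bZIP factor gene, had 5 each. The lists below were chosen with earlier results known, and long genes have more room for summits. Of 6 genes for GATA factors and their partner, 4 were counted: GATAd and ush, the Friend-of-GATA cofactor, had intronic summits led by ranks 247 and 632, and srp and GATAe share 2 regions, the stronger one intergenic at rank 1045. Each rank given for a listed gene is that of its strongest such region. The summits at GATAd were 216 bp apart, those at ush 199 bp and those of the rank 1045 region 201 bp, and each of these 3 regions had 2 or more replicate summits in 2 of the 4 replicates. The weaker region near srp and GATAe (3R:16007240-16009010, rank 1900) had a wide pair, with an intergenic summit and, 712 bp away, one in a promoter, and held 3, 2, 1 and 1 summits of replicates 1 to 4.

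In EGF receptor signalling 4 of 12 genes were counted: the ligand genes spi (rank 213) and vn (rank 642), and the ETS-domain genes aop, a repressor (rank 269), and pnt, an activator (rank 1516). The summits at spi lay in the promoter of CG13078, outside spi itself. The summits near vn lay 1 in an intron and 1 in a promoter, with S6k as the nearest gene. In BMP signalling 4 of 15 were counted, namely the receptor gene tkv (rank 391), shn (rank 161), the repressor gene brk (rank 701) and the inhibitory Smad gene Dad (rank 2658). Dad had a wide pair 328 bp apart, with 2 summits in each of the 4 replicates. The brk summits lay in an intron of another gene.

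Of the motor neuron factors, 2 of 9 were counted, exex and Lim3, a LIM-homeodomain gene whose promoter had summits 202 bp apart, led by rank 2465. Other lists had 2 of 27 axon guidance genes (fra and Sema1a), 1 of 15 temporal and neuroblast factors (vnd), 2 of 10 gut factors (srp and GATAe), 2 of 10 muscle factors (mbc and Mef2), 2 of 13 ecdysone response genes (Hnf4 and Eip75B) and 1 of 12 apoptosis genes (Debcl). No Hox gene of 8 and no tracheal gene of 7 was counted. The 5 of 11 trypsin genes counted all owe it to 1 region between kappaTry and its neighbours. Ribosomal protein genes had 6 of 86 and glutathione transferase genes 6 of 35, where GstO1 and GstO2 share a region and so do GstT1 and GstT2. The share of all genes was 9.5%. By any summit of the IDR list, 67 of 86 and 34 of 35 were counted, against 55.4% of all genes. The strongest such summits lay outside the bodies of the ribosomal protein genes. Those at RpL10Ab, RpS7, RpL30, GstO1, GstO2, GstT1, GstT2 and GstS1 had another gene as the nearest.

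The replicate and pooled lists hold 30000 peaks each, so their length says nothing of enrichment, and read depth is unknown because the lists carry no read counts. A match or a missing match of a motif describes the letters in the window, not binding. Wilson intervals cover counting error only. The signal tracks and any control library were not used here.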

How the data were processed

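Anti-GFP chromatin immunoprecipitation libraries of 4 biological replicates formed 1 group, taken from the labels. The deposited narrowPeak lists (4 replicates, pooled, IDR) give a signal score, a −log10 q-value and a summit position per line, per the file columns; how the authors aligned reads, called peaks and set the IDR threshold is not given here by any label or header. Per the labels, fragments were of 200 to 800 bp and the assembly is dm6. The IDR list equals the 7909 highest peaks of the pooled list, and peaks were called on the pooled replicates as well as per replicate. The deposited −log10 q-value reaches 1 shared maximum per list and was not used. In 2 lines of the IDR list the summit falls outside its own region, and these lines were kept.

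Regions were counted by identical chromosome, start and end. Members, gene lists and settings were chosen with earlier results of these data known. Genes and TSSs came from Ensembl release 115 (BDGP 6.54; 13945 protein-coding genes) and sequence from RefSeq Release 6. The named regions are those with 4 or more summits, the 10 of highest signal and those within 20 kb of exex, and up to 4 genes per list. Tests were exact two-sided sign-flip permutation tests over 4 replicate values; their p cannot fall below 0.125, so adjustment over comparisons could only raise it and is not given. Shares have 95% Wilson intervals. The limit for a count of 0 is 3 counts. Both cover counting error only. The alternatives changed promoter width, window, motif, matching distance, list length, signal range and replicates. The counting and the test were checked on simulated data. The scripts ran on matplotlib 3.10.9 for plots, scipy 1.17.1 for intervals, pandas 2.3.3, numpy 2.4.6 and Python 3.11.15. Depth is unknown, so no precision from read counts is given.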

Additional observations from a re-analysis of the deposited data

Results flagged for a closer look

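Of 20 measures taken over the 4 replicates, 4 had 1 replicate far from the other 3, where chance gives about 1 in 20. In replicate 3 the promoter share of multi-summit regions minus that of single-summit regions was -7.02 points, farther from 0 than in the others. In replicate 4, CTTATC at summits exceeded the midpoint between them by 15.1 points, against 0.247 to 1.13 in the others. In replicate 4 the promoter share of multi-summit regions was 57.1%, against at most 50% in the others. In replicate 4 the median spacing was 202 bp, against 203 bp in each of the others, a difference of 1 bp. Replicate 4 had 63 multi-summit regions, the fewest, and the cause was not tested.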

How the results depend on the processing

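The number of multi-summit regions was 298 in the IDR peaks of higher signal, 914 in the full pooled list, 939 with overlapping or touching regions joined and 113 with pairs over 250 bp apart only, against 603 as reported. The median spacing stayed between 204 and 206 bp in the alternatives run. Regions with every summit matched made up 83.8% with a match within 200 bp, 78.5% in the complete replicate lists and 56.6% among regions with a wide pair, against 63.4%, and 57.6% to 68.6% without 1 replicate. With a match within 200 bp, 1 replicate summit can match both summits of a near pair, so the 83.8% does not count separate replicate summits. Regions with 2 or more replicate summits made up 87.2% in the complete lists, 38.7% where the summits had to share 1 replicate region and 87.6% among regions with a wide pair, against 72.2%, and 67.6% to 76.5% without 1 replicate. The promoter difference turned to 0.319 ± 6.18 points with wide-pair regions only, of which replicate 4 has 3 pairs. The CTTATC difference between summits and midpoint turned to -9.50 ± 27.6 points for pairs at least 300 bp apart, with the same lack of pairs. The TAATTA difference between lower summit and mirror position was -0.392, with a range of -1.07 to 0.0669 without 1 replicate, and turned to 0.0669 without replicate 2. The CTTATC difference between lower summit and midpoint turned to -3.63 points without replicate 4. Every other difference in the alternatives run kept its direction. The difference between multi-summit and single-summit regions ranged without 1 replicate from -4.92 to -3.76 points for promoters, 18.1 to 21.2 for CTTATC and 4.95 to 6.87 for TAATTA. In the upper 25% of each replicate list by signal it was 9.03 ± 5.26 points for CTTATC and 2.17 ± 2.73 for TAATTA. With wide-pair regions only, CTTATC differed by 1.59 ± 22.4 points and TAATTA by 10.45 ± 4.66. With the replicate summits taken in the IDR regions it was 11.2 ± 1.34 points for CTTATC and 2.77 ± 0.996 for TAATTA. Counting TAATTG along with TAATTA the difference was 14.8 ± 11.4 points, and CTTATC in the upper 50% by signal 13.1 ± 5.40 and TAATTA 4.00 ± 2.88. The promoter difference was -1.86 ± 1.17 points with any summit of the region, -7.89 within 500 bp and -13.1 within 200 bp. Against the mirror position CTTATC differed by 5.07 ± 3.04 points with a window of 25 bp, and higher minus lower summit by 4.48 ± 2.76 for CTTATC and 4.80 ± 1.71 for TAATTA. The alternatives on wide pairs, the exex locus, the upper 25%, the higher summit and the mirror position were chosen after seeing the data, as was leaving out replicate 4 for the lower summit. All samples belong to 1 group, so no groups of samples were compared. The differences above were taken within each replicate list and are thus paired by replicate. With 4 replicates the sign-flip test used cannot give a p below 0.05, and read depth is unknown.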
